A study of Mus musculus with 31 samples.

Results

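The results below describe 5 mature mouse miRNAs, mmu-miR-147-3p, mmu-miR-1981-3p, mmu-miR-1981-5p, mmu-miR-326-3p and mmu-miR-346-5p (written below without the prefix), and the gene *AA467197*, whose transcript holds the miR-147 hairpin. They are 5 of the 507 miRNAs in the small-RNA-seq table and 1 of the 15034 genes in the RNA-seq table. The miRNAs were chosen by name because they lie outside the let-7 family and rose in CLIPΔ over WT mouse embryonic stem cells (mESCs), so their values in that contrast are given as a description with no test. All cells derived from the ES-E14TG2a mESC line. The study gives the name WT to cells with a FLAG tag knocked in at both alleles of *Trim71*, while the labels name that tag for the CLIP-seq samples and not for the libraries used here. WT cells carried no change at *Ago2*, the gene of the Argonaute protein that binds mature miRNAs. CLIPΔ cells lacked the stretch of the *Ago2* 3′UTR to which the RNA-binding protein Trim71 binds, *Ago2* KO cells carried a deletion in *Ago2*, and *Ago2* KO/CLIPΔ cells carried both. Edited cells were sorted singly and grown as clones, and the labels do not give the clone of a library, so clone and genotype cannot be told apart. Small RNAs were sequenced in 4 libraries per genotype (16 in all). The 12 RNA-seq libraries were 2 per genotype in cells with Ago2 and 4 per genotype in cells without it. In the file columns, CLIPΔ stands under a code that was read as CLIPΔ because the 3 other names are plain, and the small-RNA-seq columns of WT and CLIPΔ carry the letters A to D.

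A miRNA is cut from a hairpin in a longer transcript, and 1 strand of the resulting duplex, the 5p or the 3p arm, is held by an Argonaute protein, which protects it from decay and uses its seed, bases 2 to 8, to find target mRNAs. Many hairpins sit inside the introns or exons of protein-coding genes, here called hosts, and may be transcribed with them. miR-147 is best known from macrophages, where it is induced through Toll-like receptors, and the protein of its host is a paralog of NDUFA4, a subunit of cytochrome c oxidase. miR-326 has been linked to Hedgehog signalling through the receptor Smo.

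The 4 hairpins lie on 4 chromosomes and each lies on the sense strand of a protein-coding gene (mm10, GENCODE annotation). *Mir147* (chr2:122640803-122640881, plus strand) lies in an exon in all 3 *AA467197* transcripts that span it, and in 2 of them within the annotated 3′UTR. *Mir1981* (chr1:184822407-184822488, minus strand) lies in an intron of *Marc2*, which encodes a mitochondrial amidoxime-reducing enzyme, in all 7 transcripts that span it. *Mir326* (chr7:99552269-99552363, plus strand) lies in an intron of *Arrb1*, which encodes β-arrestin 1, in all 5 spanning transcripts. *Mir346* (chr14:34894609-34894706, plus strand) lies in an intron of *Grid1*, the gene of a glutamate receptor subunit, in its 1 spanning transcript. No other arm of these hairpins was in the table. None of the 498 deposited Trim71 CLIP-seq peaks lay in the span of a host (0 for each of the 4 genes).

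The mature sequences (RefSeq, GRCm38.p6, 4 of the 5 miRNAs matched) are shown because they let the seeds be compared, with the seed in capitals. miR-330-5p, which is in the table, is shown beside them because it has the seed of miR-326-3p.
miR-1981-3p: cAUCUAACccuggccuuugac
miR-1981-5p: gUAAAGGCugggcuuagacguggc
miR-326-3p: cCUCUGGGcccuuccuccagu
miR-330-5p: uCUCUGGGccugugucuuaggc
miR-346-5p: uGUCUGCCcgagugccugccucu
The 4 members shown have 4 different seeds, and no other miRNA in the table shares the seed of miR-1981-3p, miR-1981-5p or miR-346-5p. Their G and C content was 52.4% in miR-1981-3p, 58.3% in miR-1981-5p, 66.7% in miR-326-3p and 65.2% in miR-346-5p, against a median of 47.8% over the 442 miRNAs of the table with a sequence. A share at or above that of miR-326-3p was found in 30 of these 442, and at or above that of miR-346-5p in 37. Of the 4, only miR-346-5p begins with U, the first base of 41.0% of the 442.

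Read numbers were inferred from the steps between low values. Summed over the 507 miRNAs of the table, they came to 5488623 to 8419614 in WT and 3165436 to 7946835 in CLIPΔ libraries. Without Ago2 they came to 851562 to 1111470 in *Ago2* KO and 897497 to 1355799 in *Ago2* KO/CLIPΔ libraries. These miRNA reads thus moved with *Ago2* genotype, and sequencing depth and the share of miRNAs among all reads cannot be told apart here. Their part in the differences across *Ago2* genotypes was not tested. The TPM values of the small-RNA-seq were rescaled to a total of 1000000 per library, so a change shared by all miRNAs would not show in them. On the log2 scale the median of all miRNAs differed by 0.16 between CLIPΔ and WT, by -0.15 between *Ago2* KO/CLIPΔ and *Ago2* KO, by 0.50 between *Ago2* KO and WT, and by 0.15 between *Ago2* KO/CLIPΔ and CLIPΔ. *Ago2* mRNA was at 28.2 and 21.6 TPM in WT, 27.3 and 20.3 TPM in CLIPΔ, 1.67 to 2.29 TPM in *Ago2* KO and 1.51 to 2.88 TPM in *Ago2* KO/CLIPΔ libraries. Of 10 mESC markers, 9 were in the table, without *Sox2*, with summed levels of 9521 to 12676 TPM and a lowest single value of 22.5 TPM. Summed endoderm markers (3 of 4 in the table) were at 2.32 to 6.22 TPM over all genotypes. Of 5 macrophage and blood cell markers, only *Cd68* was in the table, at 53.4 to 77.0 TPM. The summed neural markers (2 of 3 in the table) were at 66.1 to 73.9 TPM in WT, 96.0 to 110.2 TPM in CLIPΔ, 26.4 to 29.6 TPM in *Ago2* KO and 29.1 to 40.8 TPM in *Ago2* KO/CLIPΔ libraries. The summed mesoderm markers (3 of 3) were at 66.3 to 69.2 TPM in WT, 36.6 to 40.3 TPM in CLIPΔ, 39.7 to 69.0 TPM in *Ago2* KO and 43.4 to 58.8 TPM in *Ago2* KO/CLIPΔ libraries. The lowest single neural value was 0.13 TPM in WT and 0.21 TPM in CLIPΔ, so the neural sum rests largely on the other gene. The lowest single mesoderm value was 0.23 TPM in WT and 0.65 TPM in CLIPΔ. Summed fibroblast markers overlapped between all genotypes, at 309.0 to 331.5 TPM in WT and 225.9 to 374.7 TPM in CLIPΔ. Without Ago2 they were at 327.1 to 425.5 TPM in *Ago2* KO and 316.0 to 504.0 TPM in *Ago2* KO/CLIPΔ. The part of these markers in the results below was not tested.

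miR-147-3p was at 78.9, 111.6, 22.9 and 18.5 TPM in WT libraries A to D and at 396.3, 580.5, 366.3 and 164.8 TPM in CLIPΔ libraries A to D. Every CLIPΔ library was above every WT library, and within WT the libraries A and B were above C and D. The means were 58.0 ± 45.1 TPM (SD, n = 4) and 377.0 ± 170.2 TPM (SD, n = 4), a ratio of 6.50. Taken by letter, the CLIPΔ to WT ratio was 5.02, 5.202, 15.98 and 8.91. In cells without Ago2 the miRNA was at 7.34, 12.3, 15.0 and 8.05 TPM in *Ago2* KO replicates 1 to 4 and at 6.95, 7.66, 5.28 and 4.58 TPM in *Ago2* KO/CLIPΔ replicates 1 to 4. These rest on 6 to 14 inferred reads per library, against 98 to 908 in WT and 506 to 4488 in CLIPΔ. The mean in *Ago2* KO/CLIPΔ was 61.6-fold below that in CLIPΔ, and of the 507 miRNAs only 4 had a lower log2 difference in that pair of genotypes (-5.62). The CLIPΔ libraries also chose miR-147-3p for being high there, so this rank is a description. The order was CLIPΔ, WT, *Ago2* KO and *Ago2* KO/CLIPΔ, and only the last 2 of these had overlapping ranges.

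**Figure D1:**
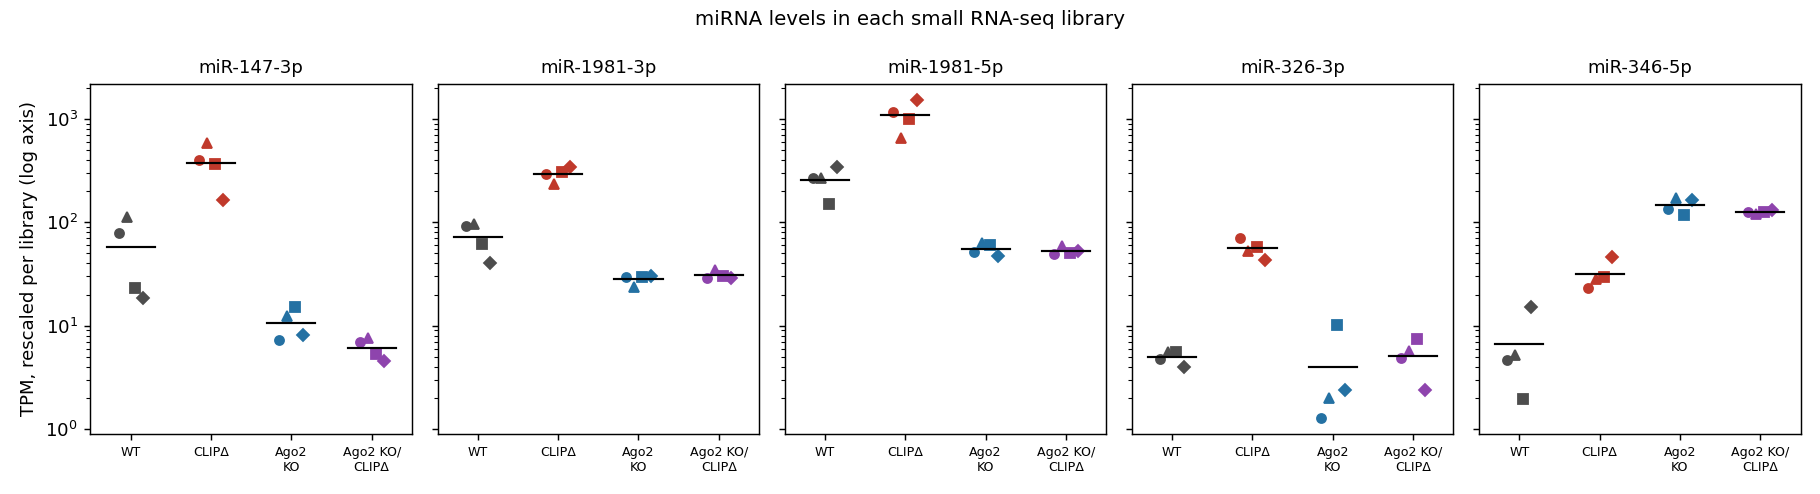
Level of each of the 5 miRNAs in each small-RNA-seq library, as TPM rescaled to the same total per library on a log axis, by genotype. Each marker is 1 library, circles, triangles, squares and diamonds are A to D or 1 to 4, and lines are means. The CLIPΔ libraries lie above the WT libraries in all 5 panels, and miR-346-5p alone is highest in the cells without Ago2, at 116.8 to 173.0 TPM.

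Both arms of miR-1981 were measured. miR-1981-5p was at 267.0, 268.8, 151.4 and 340.3 TPM in WT libraries A to D and at 1153, 659.5, 992.9 and 1535 TPM in CLIPΔ libraries A to D, with means of 256.8 ± 78.2 and 1085 ± 364 TPM (SD, n = 4 each), a ratio of 4.23. miR-1981-3p was at 91.8, 95.6, 61.8 and 40.2 TPM in WT and at 290.5, 232.1, 305.3 and 345.8 TPM in CLIPΔ, with means of 72.4 ± 26.2 and 293.4 ± 47.1 TPM, a ratio of 4.06. The arms therefore rose by close to the same factor, and neither had overlapping ranges. By letter, the CLIPΔ to WT ratio ran from 2.45 to 6.56 for the 5p arm and from 2.43 to 8.59 for the 3p arm, with B the lowest for both.

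Without Ago2 both arms were lower than in WT, with no overlap, and nearly level between genotypes. miR-1981-5p was at 51.4, 62.4, 59.8 and 47.2 TPM in *Ago2* KO replicates 1 to 4 and 49.7, 58.9, 50.6 and 52.2 TPM in *Ago2* KO/CLIPΔ replicates 1 to 4. miR-1981-3p was at 29.5, 23.9, 29.3 and 30.2 TPM in *Ago2* KO and 29.2, 34.5, 30.5 and 28.8 TPM in *Ago2* KO/CLIPΔ. From CLIPΔ to *Ago2* KO/CLIPΔ the mean of the 5p arm was 20.5-fold lower and that of the 3p arm 9.54-fold lower. From WT to *Ago2* KO these factors were 4.65 and 2.56, so in both pairs the 5p arm stood further below its level with Ago2 than the 3p arm did. The order of the genotypes was CLIPΔ, WT and then the 2 genotypes without Ago2, whose ranges overlapped.

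The balance of the arms was compared next. Inferred reads per library of the 5p and 3p arms were 1121 to 2395 and 203 to 741 in WT. They were 5162 to 8291 and 1011 to 2050 in CLIPΔ. Without Ago2 they were fewer, at 45 to 72 and 23 to 26 in *Ago2* KO and 47 to 75 and 24 to 36 in *Ago2* KO/CLIPΔ. The ratio of miR-1981-5p to miR-1981-3p, on rescaled TPM, was 2.91, 2.81, 2.45 and 8.46 in WT libraries A to D and 3.97, 2.84, 3.25 and 4.44 in CLIPΔ libraries A to D. WT library D stood alone at the top. Without Ago2 the ratio was 1.74, 2.61, 2.04 and 1.57 in *Ago2* KO and 1.70, 1.71, 1.66 and 1.81 in *Ago2* KO/CLIPΔ. All CLIPΔ libraries were above all *Ago2* KO/CLIPΔ libraries, while the lowest WT library (2.45) was below the highest *Ago2* KO library (2.61). Between the genotypes without Ago2, the ratio differed by -0.18 on the log2 scale (two-sided exact permutation test, n = 4 each, p = 0.343).

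**Figure D2:**
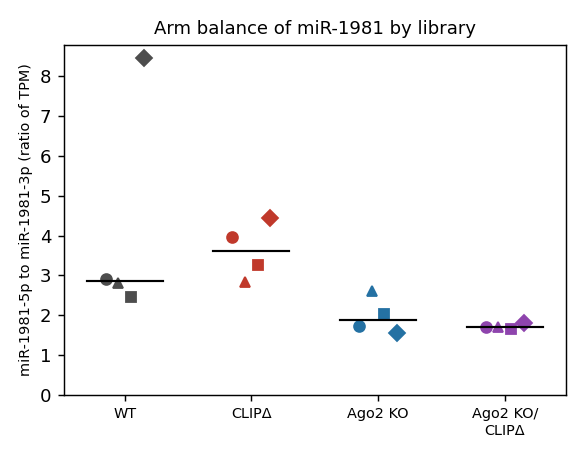
Ratio of miR-1981-5p to miR-1981-3p in each small-RNA-seq library by genotype. Each marker is 1 library, lines are medians, which were 2.86 in WT, 3.61 in CLIPΔ, 1.89 in *Ago2* KO and 1.71 in *Ago2* KO/CLIPΔ, and WT library D stands apart at 8.46.

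miR-326-3p had the largest CLIPΔ difference of the 5 on the log2 scale. It was at 4.76, 5.55, 5.59 and 3.97 TPM in WT libraries A to D and at 70.2, 53.1, 57.2 and 43.1 TPM in CLIPΔ libraries A to D. The WT libraries lay close together, and the CLIPΔ to WT ratio by letter was 14.7, 9.57, 10.2 and 10.9. The means were 4.97 ± 0.77 and 55.9 ± 11.2 TPM (SD, n = 4 each), a ratio of 11.3. *Ago2* KO replicates 1 to 4 were at 1.28, 1.99, 10.1 and 2.41 TPM and *Ago2* KO/CLIPΔ replicates 1 to 4 at 4.87, 5.74, 7.39 and 2.40 TPM. These rest on 1 to 9 inferred reads in the first and 3 to 8 in the second. Below CLIPΔ, the levels of the 3 other genotypes overlapped, and a difference among them was not detectable with so few reads.

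miR-330-5p, with the same seed, did not follow it. It was at 105.0 ± 31.0 TPM in WT and 114.8 ± 35.2 TPM in CLIPΔ (SD, n = 4 each), with overlapping ranges and a log2 difference of 0.13, against 3.24 for miR-326-3p. Its level without Ago2 was 41.9 ± 4.9 TPM in *Ago2* KO and 44.0 ± 4.8 TPM in *Ago2* KO/CLIPΔ (SD, n = 4 each). In WT its level was thus far above that of miR-326-3p.

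miR-346-5p rose in CLIPΔ like the others but was highest without Ago2. It was at 4.62, 5.16, 1.98 and 15.1 TPM in WT libraries A to D and at 23.1, 28.4, 29.5 and 45.7 TPM in CLIPΔ libraries A to D. Library D was the highest of each genotype, and the lowest CLIPΔ library was above the highest WT library. *Ago2* KO replicates 1 to 4 were at 135.5, 173.0, 116.8 and 163.5 TPM and *Ago2* KO/CLIPΔ replicates 1 to 4 at 125.0, 119.0, 126.0 and 131.1 TPM. The means were 6.72 ± 5.78 TPM in WT, 31.7 ± 9.8 in CLIPΔ, 147.2 ± 25.8 in *Ago2* KO and 125.3 ± 5.0 in *Ago2* KO/CLIPΔ (SD, n = 4 each). The *Ago2* KO mean was 21.9-fold above WT, and only 5 of the 507 miRNAs had a higher log2 difference between these genotypes (4.52). The WT libraries also served to choose miR-346-5p, so this rank is a description. Inferred reads per library were 14 to 84 in WT, 114 to 191 in *Ago2* KO and 113 to 180 in *Ago2* KO/CLIPΔ. The median was 188.5 in CLIPΔ, above those of 132.5 in *Ago2* KO and 132.0 in *Ago2* KO/CLIPΔ, and the ranges of these 3 genotypes overlapped. The order was the 2 genotypes without Ago2, which overlapped, then CLIPΔ and then WT, with no overlap between those 3 steps.

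Together the 5 miRNAs made up a small share of the summed TPM, 0.0399% ± 0.0107 in WT, 0.184% ± 0.025 in CLIPΔ, 0.0245% ± 0.0022 in *Ago2* KO and 0.0220% ± 0.0004 in *Ago2* KO/CLIPΔ libraries (SD, n = 4 each). Ranges that did not overlap, with CLIPΔ higher, were found in 5 of the 5 miRNAs, as the choice of members fixed, and in 20.1% of the 507 miRNAs, and limma called 27.8% of the 227 that averaged 100 TPM or more, in either direction. In *Ago2* KO against WT, 3 of the 5 were lower without overlap (background 25.0%), miR-346-5p was higher without overlap (background 40.8%), and miR-326-3p overlapped. In *Ago2* KO/CLIPΔ against CLIPΔ, 4 of the 5 were lower without overlap (background 31.4%) and miR-346-5p was higher (background 38.1%). These comparisons share the WT and CLIPΔ libraries that chose the members. Of the 102 miRNAs higher in every CLIPΔ library, let-7 members included, 31 were lower in every *Ago2* KO than in every WT library and 32 were higher. Over all 507 miRNAs, 127 were lower (25.0%) and 207 higher (40.8%), so either direction was common with or without a rise in CLIPΔ. The same WT libraries picked the 102.

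The members were the highest of the 492 miRNAs outside the let-7 family and miR-98 in CLIPΔ against WT, with ranks from 1 to 5 by log2 difference. They were chosen for rising in this contrast, so the ranks only describe that choice. The last member inside was miR-1981-5p at 2.07, and the first miRNA outside was miR-669c-5p at 2.03, with 1231 ± 326.2 TPM in WT and 4969 ± 1065 TPM in CLIPΔ (SD, n = 4 each). The 4 next among those with a mean of at least 100 TPM were miR-467d-5p (log2 difference of 1.84), miR-669o-5p (1.76), miR-466d-3p (1.69) and miR-669f-5p (1.67), which all belong to the related miR-466, miR-467 and miR-669 families. For scale, let-7b-5p went from 44.4 ± 25.8 TPM in WT to 1159 ± 430 TPM in CLIPΔ (log2 difference of 4.79) and let-7g-5p from 3655 ± 2207 to 29060 ± 3213 TPM (3.22). Over all 16 libraries, *Ago2* genotype and the number of miRNA reads moved together. The log2 levels of miR-147-3p, miR-326-3p and the arms of miR-1981 correlated with one another there (Pearson r from 0.83 to 0.96 in the 6 pairs). miR-346-5p had r from -0.56 to -0.24 with these 4.

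The miRNAs with the most similar pattern differed between the members. Among 249 miRNAs with a mean of at least 100 TPM, miR-147-3p was most like miR-467c-5p, miR-669o-5p and miR-467e-5p (r of 0.98 each). miR-1981-3p was most like let-7d-5p (0.99), let-7b-5p (0.98) and miR-467c-5p (0.98), and miR-1981-5p most like miR-669c-5p (0.99), let-7e-5p (0.99) and miR-298-5p (0.98). miR-326-3p was most like miR-98-5p, let-7d-5p and let-7i-5p (0.91, 0.91 and 0.90). miR-346-5p had none of these and was most like miR-484, miR-744-5p and miR-211-5p (0.97, 0.96 and 0.96). All these r values are across 16 libraries in 4 genotypes and describe mainly the steps between genotypes.

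Whether the deletion of the Trim71 site moved the miRNAs in the absence of Ago2 was asked in the 8 libraries of *Ago2* KO and *Ago2* KO/CLIPΔ cells, which did not choose the members. No member passed the test. Differences on the log2 scale of TPM + 1 were -0.69 for miR-147-3p (two-sided exact permutation test on the rescaled TPM, n = 4 each, p = 0.0571), 0.12 for miR-1981-3p (exact p = 0.400), -0.05 for miR-1981-5p (exact p = 0.629), 0.53 for miR-326-3p (exact p = 0.629) and -0.21 for miR-346-5p (exact p = 0.200). The smallest p that 4 against 4 libraries can give is 0.0286, which 162 of all 507 miRNAs (32.0%) reached. In limma without a filter, 0 of the 5 were called, against 32.1% of 507 miRNAs, and 1, miR-147-3p, had an unadjusted p under 0.05. In edgeR on the inferred reads without a filter, the adjusted p of the 5 ran from 0.162 to 0.865. The shares of all miRNAs at an unadjusted p under 0.05 and in this edgeR fit were not counted. Only miR-346-5p had the mean of 100 TPM needed for the main limma fit (adjusted p = 0.204), in which 52.2% of 232 miRNAs were called. When values were centred on the median of each library, miR-346-5p reached the smallest exact p (difference of -0.28, p = 0.0286).

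The 95% intervals from limma without a filter ran from -1.35 to -0.02 for miR-147-3p, from -0.28 to 0.52 for miR-1981-3p, from -0.40 to 0.29 for miR-1981-5p, from -0.49 to 1.55 for miR-326-3p and from -0.51 to 0.09 for miR-346-5p. In cells with Ago2 the differences were 2.93, 2.07, 2.07, 3.24 and 2.31 in the same order, which is a description, since the members were chosen for these values. let-7b-5p differed by 0.49 without Ago2 (limma without a filter, adjusted p = 0.337) and let-7g-5p by -0.24 (limma, adjusted p = 0.0331).

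**Figure D3:**
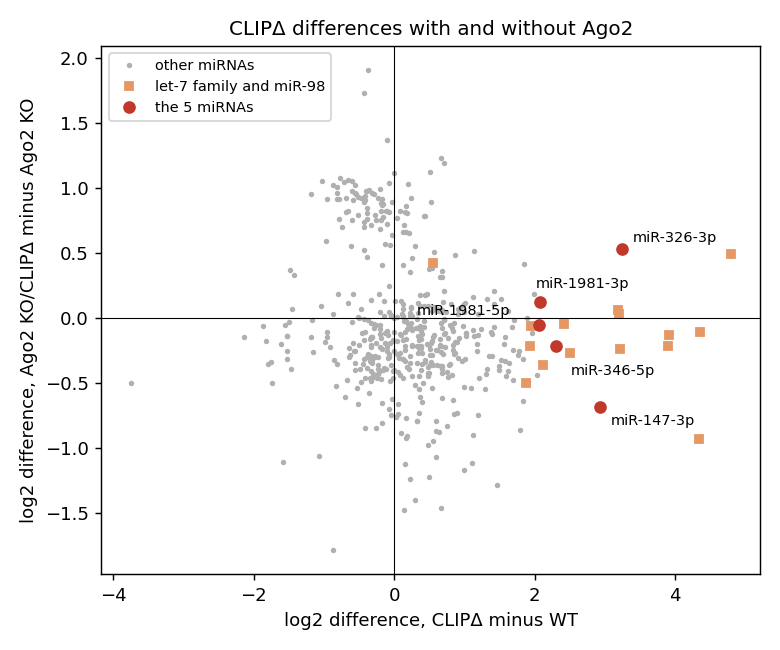
Log2 difference of each of the 507 miRNAs in CLIPΔ over WT cells (x axis) against the log2 difference in *Ago2* KO/CLIPΔ over *Ago2* KO cells (y axis), as differences of mean log2(TPM + 1). The 5 miRNAs (red) lie between 2.07 and 3.24 on the x axis and between -0.69 and 0.53 on the y axis, among the let-7 family (orange).

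*AA467197*, whose exon holds the miR-147 hairpin, was at 4.58 and 0.46 TPM in WT replicates 1 and 2 and at 12.7 and 3.30 TPM in CLIPΔ replicates 1 and 2. The CLIPΔ library was above the WT library of the same number in both cases, but the ranges of the genotypes overlapped because replicate 1 was far above replicate 2 in each. The log2 difference was 1.43 with an interval from -0.62 to 3.47 (limma, n = 2 each, adjusted p = 1.00), and limma called 0 of 11642 genes in this contrast (0.0%, with 604, or 5.19%, at an unadjusted p under 0.05). Leaving out 1 library leaves a genotype with 1 library, which is then assumed to vary like the other genotype and, through limma, like other genes, although the replicates of *AA467197* differed widely. On that assumption the difference without CLIPΔ replicate 2 was 2.26 (limma, adjusted p = 0.0009). Without WT replicate 1 it was 2.39, without WT replicate 2 it was 0.46, and without CLIPΔ replicate 1 it was 0.59, none with an adjusted p under 0.05. The mean ratio of 3.17 for the host stood beside 6.50 for miR-147-3p, from different libraries.

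In cells without Ago2, *AA467197* was low, at 0.64, 1.76, 0.84 and 0.97 TPM in *Ago2* KO replicates 1 to 4 and at 0.61, 0.78, 1.47 and 1.60 TPM in *Ago2* KO/CLIPΔ replicates 1 to 4. These genotypes overlapped, with means of 1.05 ± 0.49 and 1.11 ± 0.49 TPM (SD, n = 4 each) and a log2 difference of 0.04 with an interval from -0.40 to 0.48 (limma, adjusted p = 0.939, background 3.22% of 10956 genes, or 353 called, and 804 with the replicate number as a block). Replicates 1 and 2 gave -0.33 (limma, adjusted p = 0.276) and replicates 3 and 4 gave 0.41 (limma, adjusted p = 0.0087, in a fit that called 4207 genes). The sign thus differed between the pairs of replicates, a split chosen after seeing the data, and only the second pair gave a call. *AA467197* was 7.18-fold lower in *Ago2* KO/CLIPΔ than in CLIPΔ cells, with no overlap (log2 difference of -1.89, limma, adjusted p = 0.0110, background 47.9% of 11256 genes). This call was lost without CLIPΔ replicate 1 (-1.05, limma, adjusted p = 0.0517, with the lone CLIPΔ library assumed to vary like *Ago2* KO/CLIPΔ). Against WT, *Ago2* KO differed by -0.51 (limma, adjusted p = 0.398, background 57.5% of 11297 genes). Without WT replicate 1 that difference was 0.46 and without WT replicate 2 it was -1.47 (limma, adjusted p = 0.0040, with the spread taken from *Ago2* KO alone, while the WT libraries lay at 4.58 and 0.46 TPM), so its direction turned with the WT library used. The CLIPΔ differences with and without Ago2 differed by -1.38 (interaction term in limma over 12 libraries, adjusted p = 0.701, background 0.647% of 11287 genes). These comparisons share libraries.

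**Figure D4:**
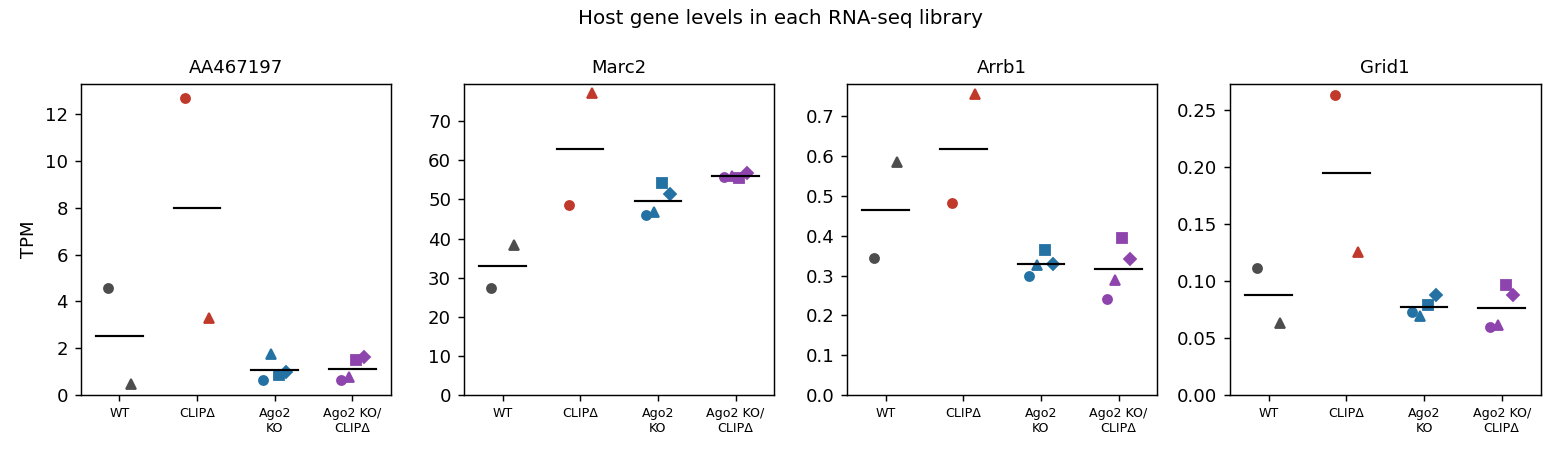
TPM of the 4 host genes in each RNA-seq library by genotype, with markers for replicates 1 to 4 (circle, triangle, square, diamond) and lines for means. *AA467197* is highest in CLIPΔ replicate 1 at 12.7 TPM, and *Arrb1* and *Grid1* stay below 1 TPM in all libraries.

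*Marc2*, the host of miR-1981, was at 27.4 and 38.4 TPM in WT and 48.5 and 77.2 TPM in CLIPΔ replicates 1 and 2, without overlap, as in 11.5% of genes tested. The log2 difference was 0.90 (limma, n = 2 each, adjusted p = 0.857), beside 2.07 for each arm of the miRNA. Unlike the arms, *Marc2* was not low without Ago2, at 45.9 to 54.3 TPM in *Ago2* KO and 55.6 to 56.9 TPM in *Ago2* KO/CLIPΔ. It was higher in *Ago2* KO than in WT by 0.60 (limma, adjusted p = 0.0110, background 14.1% higher). With the replicate number as a block it was not called (limma, adjusted p = 0.0598). The log2 differences in the small-RNA-seq were -2.15 for miR-1981-5p and -1.25 for miR-1981-3p. In *Ago2* KO/CLIPΔ against *Ago2* KO, each pair of replicates, split after seeing the data, called far more genes alone than all replicates did. In that contrast *Marc2* differed by 0.18 (limma, adjusted p = 0.180), with 0.26 in replicates 1 and 2 (limma, adjusted p = 0.0098) and 0.09 in replicates 3 and 4 (limma, adjusted p = 0.177). Against CLIPΔ it differed by -0.12 (limma, adjusted p = 0.567), and without CLIPΔ replicate 1 by -0.45 (limma, adjusted p = 0.0215, with the spread taken from *Ago2* KO/CLIPΔ alone). Its interaction term was -0.72 (limma, adjusted p = 0.347).

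The other hosts were barely expressed and below the mean of 1 TPM needed for the test. *Arrb1* was at 0.34 and 0.59 TPM in WT, 0.48 and 0.76 in CLIPΔ, 0.30 to 0.36 in *Ago2* KO and 0.24 to 0.39 in *Ago2* KO/CLIPΔ. *Grid1* was at 0.11 and 0.06 TPM in WT, 0.26 and 0.13 in CLIPΔ, 0.07 to 0.09 in *Ago2* KO and 0.06 to 0.10 in *Ago2* KO/CLIPΔ. Its level did not rise with miR-346-5p in the cells without Ago2. In RNA-seq libraries, less RNA of a gene per cell and fewer cells that express it cannot be told apart.

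The 5 genes whose pattern over the 12 RNA-seq libraries was most like that of *AA467197*, among 11287 with a mean of at least 1 TPM, were *Gpr85* (an orphan receptor), *Zfp874a*, *Acot2* (a mitochondrial acyl-CoA thioesterase), *Lrpap1* (a chaperone of lipoprotein receptors) and *Meis2* (a homeodomain transcription factor), with r of 0.97, 0.96, 0.96, 0.95 and 0.95. *Gpr85* had means of 1.45 TPM in WT, 3.29 in CLIPΔ, 0.96 in *Ago2* KO and 0.82 in *Ago2* KO/CLIPΔ. *Lrpap1* was the one at a high level, with means of 169.2, 223.0, 143.8 and 139.4 TPM in the same order. Each of the 5 had its highest mean in CLIPΔ, as did *AA467197*, whose pattern they were picked to match. The ranges of WT and CLIPΔ overlapped in all of them but *Gpr85*.

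Genes of the settings in which these miRNAs are known were looked at next. Of 12 cytochrome c oxidase subunits, the complex of the *AA467197* paralog, 0 were called in CLIPΔ against WT (limma), where 0 of 11642 genes were called. In *Ago2* KO/CLIPΔ against *Ago2* KO, 0 were called (limma, background 3.22%). The medians were 0.04 and 0.14, against -0.05 and -0.05 over all genes tested. The share above 0 was 66.7% against 40.1% over all genes in the first contrast and 91.7% against 36.5% in the second. In *Ago2* KO against WT, 5 of the 12 were called higher (background 14.1%) and 5 lower (background 43.5%), from 0.89 for *Cox5b* to -0.98 for *Cox7c* (limma, adjusted p = 0.0004 and 0.0017). Against CLIPΔ, *Ago2* KO/CLIPΔ had 4 called higher (background 10.7%) and 1 lower (background 37.2%). The most abundant were *Cox4i1*, *Cox6a1* and *Cox8a*, at 1116, 619.4 and 569.3 TPM in WT and 1167, 658.1 and 552.7 TPM in CLIPΔ. *Ndufa4* was at 366.2 and 312.4 TPM in WT and 364.0 and 316.1 TPM in CLIPΔ (log2 difference of 0.00, limma, adjusted p = 1.00). In *Ago2* KO/CLIPΔ it was at 259.6 and 243.6 TPM in replicates 1 and 2 and 347.7 and 370.7 TPM in replicates 3 and 4, and in *Ago2* KO at 243.2 and 264.1 TPM in replicates 1 and 2 and 297.4 and 300.8 TPM in replicates 3 and 4. In RNA-seq, replicates 1 and 2 alone gave 4161 called genes and replicates 3 and 4 alone gave 4207 (limma), against 353 in all 4, so the replicates of these genotypes stood apart in pairs, and *AA467197* in *Ago2* KO/CLIPΔ followed the same split.

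Of 27 genes of the NF-κB and Toll-like receptor response, 19 were in the table and 17 passed the filter. Of these, 0 were called in CLIPΔ against WT (limma, background 0.0%, median of -0.04). In *Ago2* KO/CLIPΔ against *Ago2* KO, 0 were called (limma, background 3.22%, median of -0.09). Called higher and lower were 3 and 4 in *Ago2* KO against WT (background 14.1% higher and 43.5% lower). In *Ago2* KO/CLIPΔ against CLIPΔ they were 3 and 5 (background 10.7% higher and 37.2% lower). The genes *Ccl2*, *Cxcl1*, *Cxcl10*, *Vcam1*, *Tlr4*, *Tnf*, *Il6* and *Il1b* were not in the table. The most abundant were *Socs3*, a feedback inhibitor of cytokine signalling, at 520.3 TPM in WT and 377.5 TPM in CLIPΔ (limma, adjusted p = 0.974), *Nfkbia*, the inhibitor of NF-κB, at 93.0 and 99.4 TPM (limma, adjusted p = 1.00), and *Nfkbib* at 66.4 and 63.2 TPM (limma, adjusted p = 1.00).

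Of 12 Hedgehog pathway genes, 10 were tested in CLIPΔ against WT, of which 0 were called (limma, background 0.0%). A difference above 0 was found in 0.0% of them (median of -0.28), against 40.1% over all genes. *Gli1*, a transcription factor and a target of the pathway, was at 8.62 and 9.42 TPM in WT and 2.76 and 3.60 TPM in CLIPΔ (log2 difference of -1.27, limma, n = 2 each, adjusted p = 0.444). Without Ago2 it was at 11.7, 11.2, 8.78 and 8.61 TPM in *Ago2* KO and 4.08, 4.69, 3.91 and 3.41 TPM in *Ago2* KO/CLIPΔ, with no overlap, and was the 1 of 9 tested genes that was called (-1.14, limma, adjusted p = 0.0023, background 2.24% lower). *Smo* was at 20.05 TPM in WT and 16.8 TPM in CLIPΔ (limma, adjusted p = 1.00) and *Kif7* at 28.2 and 14.4 TPM (limma, adjusted p = 0.699). Hedgehog genes were called lower in 6 of 10 tested in *Ago2* KO against WT (background 43.5% lower), and in 1 of 9, *Gas1*, in *Ago2* KO/CLIPΔ against CLIPΔ (background 37.2% lower).

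Seed matches were read from the longest annotated 3′UTR of 14197 genes in the table as an 8mer, the complement of the seed followed by A. The 8mer GTTAGATA of miR-1981-3p was in 223 genes (1.57%), GCCTTTAA of miR-1981-5p in 855 (6.02%), CCCAGAGA of miR-326-3p and miR-330-5p in 960 (6.76%) and GGCAGACA of miR-346-5p in 590 (4.16%). A gene may hold more than 1 of them. In CLIPΔ against WT limma called 0 of 11642 genes, so calls cannot tell these lists from other genes. The medians were -0.06, -0.07, -0.07 and -0.06 in that order, against -0.05 over all genes with an annotated 3′UTR. The share above 0 was 36.8%, 36.1%, 36.5% and 36.3%, against 40.0%. In *Ago2* KO/CLIPΔ against *Ago2* KO the medians were -0.05, -0.04, -0.04 and -0.02, against -0.05.

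In *Ago2* KO against WT, genes with an 8mer of miR-1981-3p had a median of -0.49, with 7 called higher and 104 called lower of 166 tested, and those of miR-1981-5p a median of -0.46, with 42 higher and 378 lower of 659. Those of miR-326-3p had a median of -0.31, with 83 higher and 329 lower of 708. Those of miR-346-5p had a median of -0.33, with 38 higher and 227 lower of 443. Over 10850 genes with a 3′UTR the median was -0.25, with 1550 higher and 4687 lower. The length and base composition of these 3′UTRs were not matched, and their part in these medians was not tested.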

How the data were processed

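Small-RNA-seq and RNA-seq values are TPM that the authors deposited after mapping to mm10 with HISAT2 2.1.0 and counting on the longest transcript of each gene. Both tables hold only rows above 0 in every library. The authors also deposited 1 list of Trim71 CLIP-seq peaks with whole counts of reads, used here for position only. RNA-seq columns summed to 998656 to 999501 TPM and their depth is unknown. The 31 samples were grouped by the labels. The labels call the replicates biological but do not say that they are separate cultures or clones, so p-values measure the spread between these samples.

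miRNA values were rescaled to the same total per library. Tests used log2(TPM + 1) with a pseudocount of 1, which understates changes of low features, in limma 3.58.1 (R 4.3.3), and a feature was called where its p-value, adjusted by the method of Benjamini and Hochberg, was under 0.05. Features with a mean of at least 100 TPM (miRNAs) or 1 TPM (genes) over the libraries compared were tested. Read numbers were inferred from the steps between low values, at least 99.7% of which were whole multiples within 0.02, for edgeR 4.0.16 and DESeq2 1.42.0. Single miRNAs were compared by two-sided exact permutation tests (Python 3.11.15, scipy 1.17.1, pandas 2.3.3, numpy 2.4.6), and figures were drawn with matplotlib 3.10.9. The fits were tested on simulated data. Replicate numbers of *Ago2* KO and *Ago2* KO/CLIPΔ libraries come from the sample labels, and same-numbered libraries deviated together (r of 0.16 to 0.52 in the small-RNA-seq and 0.32 to 0.43 in the RNA-seq, 4 pairs each).

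The members and lists were chosen with earlier results of these data known. Named beside them by rule were the hosts of the hairpins, the 3 miRNAs or 5 genes with the most similar pattern, the 5 next miRNAs by log2 difference, let-7b-5p and let-7g-5p, members of each gene list that were called or were the 3 most abundant, *Ago2* and cell type markers. miR-330-5p, chosen for its seed, and *Ndufa4*, chosen as the paralog, fall outside that rule and were added with their values known. Other pseudocounts, filters, scalings, tools, left-out libraries and replicate blocks were tried.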

Additional observations from a re-analysis of the deposited data

Results flagged for a closer look

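In 28 groups of 4 libraries, the gap between the highest or lowest library and the next was compared with the range of the group, and 2 groups stood out, where chance gives about 1 in 20. miR-326-3p in *Ago2* KO replicate 3 was at 10.1 TPM, with the other libraries at 1.28 to 2.41 TPM, a gap of 0.872 of the range. miR-1981-3p in *Ago2* KO replicate 2 was at 23.9 TPM, below the others at 29.3 to 30.2 TPM, a gap of 0.859 of the range. Both rest on few inferred reads, 1 to 9 per library for miR-326-3p and 23 to 26 for miR-1981-3p.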

How the results depend on the processing

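Of 477 alternative values, 434 kept their direction and their side of the threshold or stayed within the spread. The CLIPΔ differences of the 5 miRNAs were above 0 in all 106 alternatives (1.35 to 3.37), and a pseudocount of 10 lowered miR-326-3p to 2.12 and miR-346-5p to 1.35. Of their 86 alternatives without Ago2, 1 passed, miR-346-5p centred on library medians (-0.28, exact permutation p = 0.0286). *AA467197* ranged from 0.46 to 2.39 in CLIPΔ against WT with 1 library left out, and with the replicate number as a block it was 1.43 (limma, adjusted p = 0.0192). *Marc2* then also passed (limma, adjusted p = 0.0274), but in *Ago2* KO against WT it did not (limma, adjusted p = 0.0598). These WT and CLIPΔ libraries share only a number (2 pairs, r of 0.72), as do those of *Ago2* KO and WT. With 1 library left out, *AA467197* ranged from -1.47 to 0.46 in *Ago2* KO against WT and from -2.73 to -1.05 in *Ago2* KO/CLIPΔ against CLIPΔ, and *Ago2* KO/CLIPΔ replicates 3 and 4 alone gave 0.41 against *Ago2* KO. The block changed no other call of a member or host. A genotype left with 1 library was assumed to vary like the other libraries in the fit.

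Counts of calls moved more. For miRNAs in CLIPΔ against WT, 63 became 136 without a filter, 100 in 1 model over 16 libraries and 125 with the column letter as a block, an alternative chosen after seeing the data. Without Ago2, 121 became 68 in edgeR, 77 in DESeq2 and 51 in the 16-library model. For genes in CLIPΔ against WT, 0 became 284 in 1 model over 12 libraries, 333 with the replicate block and 0 to 180 with 1 library left out (51 without CLIPΔ replicate 1 and 180 without CLIPΔ replicate 2). In *Ago2* KO/CLIPΔ against *Ago2* KO, 353 became 100 in the 12-library model, 804 with the block, 4161 and 4207 in replicates 1 and 2 and replicates 3 and 4, chosen after seeing the data, and 135 to 255 with 1 library left out. In *Ago2* KO against WT, 6499 became 4154 with the block. In *Ago2* KO/CLIPΔ against CLIPΔ, 5394 became 2797 to 5642 with 1 library left out. The interaction count of 73 became 168 without a filter and 51 to 144 with 1 library left out (144 without CLIPΔ replicate 2). The cause of these moves was not tested. Few reads limit miR-147-3p and miR-326-3p without Ago2.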
